A study of Homo sapiens with 2 samples.

Results

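Replication licensing genes encode the factors that load the replicative helicase on DNA. The 10 genes described here were MCM2, MCM3, MCM4, MCM5, MCM6, MCM7, MCM10, CDC6, CDT1 and GMNN, out of 22465 genes measured in U937, an acute myeloid leukemia cell line with monocytic features. They were chosen by symbol, with no measured value in the rule but with earlier results of these data known. Each had 1 row annotated with its symbol alone and none annotated with several symbols, so all 10 were measured and no choice between rows was needed. U937 cells transduced with empty vector and U937 cells transduced with TWIST-1 were each profiled on 1 Affymetrix Human Transcriptome Array 2.0. Both populations carried the lentiviral backbone and were sorted for green fluorescent protein. The labels name no clone, so each culture was taken as a sorted pool of transduced cells. There was 1 array a group, so a difference has no replicate error and no test, and TWIST-1 cannot be told apart from anything else in which the cultures or the arrays differed.

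Before S phase, the origin recognition complex binds DNA and, together with CDC6 and CDT1, loads the MCM2 to MCM7 proteins as a ring around the double helix. This step is called licensing, and it is limited to the time from late mitosis to the end of G1 so that each origin fires no more than once a cycle. Geminin, the product of GMNN, binds CDT1 and blocks further loading in S and G2 phase, and MCM10 acts after loading, when the helicase is activated. Many of these genes are targets of E2F factors, and MCM proteins are widely used as markers of proliferating cells.

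The authors deposited log2 levels, and the ratios below are TWIST-1 minus vector on that scale. Over all genes the median log2 ratio was 0.04, with 609 genes (2.71%) at least 1.2-fold higher and 641 (2.85%) at least 1.2-fold lower, so 48.7% of the genes past this threshold were higher. Once the median ratio was subtracted from every gene, called centred ratios here, the share higher was 23.3% (329 and 1084 genes), after loess normalization 28.7% (333 and 827) and after a repeated quantile normalization 32.2% (358 and 754). TWIST1 had levels of 4.13 and 4.34, a log2 ratio of 0.21, and whether its probes can read the introduced cDNA was not examined. The 9 measured myeloid markers lay between 3.90 (CD14) and 11.6 (LYZ) on the vector array and between 3.94 and 11.4 on the TWIST-1 array, and 7 of them were no dimmer than the median gene. The lysozyme gene LYZ had a ratio of -0.27, past 1.2-fold lower, which was -0.14 after loess and -0.26 after repeated quantile normalization and short of the threshold in both. The other 8 were not past it, MPO being the highest at 0.16. The 6 T cell markers lay between 2.17 and 5.52 on the vector array and between 2.12 and 5.60 on the TWIST-1 array, and the 4 B cell markers between 2.43 and 5.90 and between 2.49 and 5.85. Of 4 erythroid markers all had ratios above 0. So had 13472 of the 22465 genes, and 7800 of the 11232 genes below the median level. Among the erythroid markers, the transcription factor gene KLF1 had levels of 6.55 and 6.90 (ratio 0.35, past 1.2-fold higher). The globin gene HBB had 3.50 and 3.64. Of the other markers, 1 of 6 T cell, 3 of 4 B cell and 2 of 4 erythroid markers were also no dimmer than the median gene. The part of all these markers in the results below was not tested.

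None of the 10 licensing genes was at least 1.2-fold higher or lower on the deposited scale, against a background of 2.71% and 2.85% of all genes. CDC6 came closest, with a log2 ratio of -0.261 against a threshold of 0.263, followed by MCM10 at -0.17 and MCM4 at -0.13. The highest ratios were those of MCM5, CDT1 and MCM2, at 0.07, 0.07 and 0.06. The median of the 10 genes was -0.07, and 7 of them had ratios below 0, as did 7816 of all genes (34.8%) and 5225 of the 11233 genes at or above the median level (46.5%). All 10 licensing genes were at or above that level of 5.19.

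**Figure D1:**
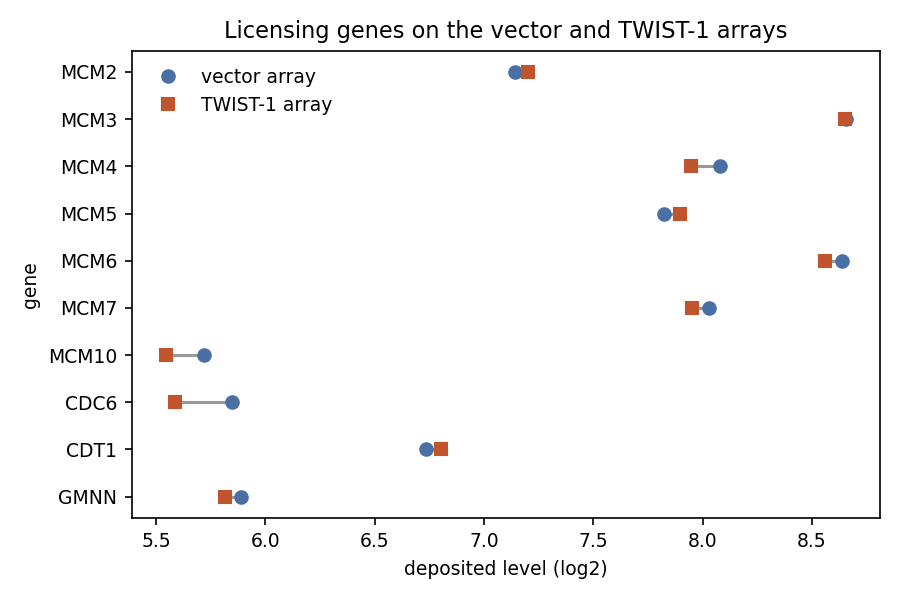
Deposited log2 level of each of the 10 licensing genes (x axis) on the vector array (blue circles) and the TWIST-1 array (orange squares), 1 array each, joined by a line. The longest lines are those of CDC6 (5.85 and 5.59) and MCM10 (5.72 and 5.55), while the points of MCM3 (8.66 and 8.65) nearly coincide.

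The promoter sequences of the lowest and the highest of these genes are shown first, because many licensing genes are known E2F targets. Promoter windows from RefSeq (GRCh38.p14, 250 bases before to 50 after the start of a gene) matched 8 of the 10 genes, all but MCM4 and MCM5, in 11 windows. E2F motifs were searched on both strands in 2 sets of letters. The first was TTTCCCGC, TTTCGCGC, TTTGCCGC and TTTGGCGC. The second added the same words ending in G, TTTCCCGG, TTTCGCGG, TTTGCCGG and TTTGGCGG, and was chosen after the sequences of CDC6 and CDT1 had been seen. The stretches below are the 250 bases before the start, read on the strand of the gene, with the words of either set in capitals. CDC6 and MCM10 had the lowest ratios of the 10 genes, and MCM2 and CDT1 had the highest among those with a window.
CDC6, chr17:40287629-40287878, plus strand: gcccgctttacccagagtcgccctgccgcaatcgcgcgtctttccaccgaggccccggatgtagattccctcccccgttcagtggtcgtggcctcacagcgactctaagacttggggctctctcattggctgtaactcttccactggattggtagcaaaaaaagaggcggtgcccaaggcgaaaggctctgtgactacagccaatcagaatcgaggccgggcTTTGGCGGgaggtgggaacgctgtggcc
MCM10, chr10:13161308-13161557, plus strand: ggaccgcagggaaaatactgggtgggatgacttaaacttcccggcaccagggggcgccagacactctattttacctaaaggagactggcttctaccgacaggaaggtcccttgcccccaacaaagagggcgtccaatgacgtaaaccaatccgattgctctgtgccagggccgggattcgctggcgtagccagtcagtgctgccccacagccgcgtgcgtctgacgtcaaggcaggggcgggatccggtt
MCM2, chr3:127598161-127598410, plus strand: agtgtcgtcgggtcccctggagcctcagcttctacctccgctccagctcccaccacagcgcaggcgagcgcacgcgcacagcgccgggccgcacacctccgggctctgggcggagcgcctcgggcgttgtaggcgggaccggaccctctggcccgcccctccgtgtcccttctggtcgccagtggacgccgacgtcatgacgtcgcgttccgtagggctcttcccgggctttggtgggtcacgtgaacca
CDT1, chr16:88803539-88803788, plus strand: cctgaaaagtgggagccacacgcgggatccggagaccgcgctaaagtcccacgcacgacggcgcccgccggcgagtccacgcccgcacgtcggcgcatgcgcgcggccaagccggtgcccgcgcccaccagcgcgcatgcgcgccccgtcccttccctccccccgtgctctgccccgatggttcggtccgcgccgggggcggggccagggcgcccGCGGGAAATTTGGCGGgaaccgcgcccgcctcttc

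Counting the last base before the start as -1, CDC6 held TTTGGCGG at -28 to -21 and a further word, TTTGGCGC, just after the start at 8 to 15. CDT1 held 2 words side by side, GCGGGAAA (TTTCCCGC read on the other strand) at -35 to -28 and TTTGGCGG at -27 to -20. MCM2 and MCM10 held theirs only after the start, MCM2 as TTTCGCGC at 3 to 10 and, overlapping it, GCGCGAAA at 7 to 14, and MCM10 as TTTGGCGG at 6 to 13. MCM6 held TTTGGCGC overlapped by GCGCGAAA in 2 places, starting at -152 and at -90. Words of the first set were present in 7 of the 11 windows (in every gene but MCM10) and in 3.31% of the 35116 RefSeq windows. With the second set added they were present in 9 of the 11 windows, in all 8 genes, and in 6.19% of RefSeq windows.

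TWIST-1 is a basic helix-loop-helix factor, a class that binds E-boxes (CANNTG). An E-box was present in 7 of the 11 windows, in 5 genes (GMNN, MCM2, MCM6, MCM7 and MCM10), and in 68.7% of all windows. The form CACGTG lay at -11 to -6 in MCM2 and at 11 to 16 in a window of GMNN. It also lay at -25 to -20 in the window of MCM7 that holds TTTCGCGC at -9 to -2. CDC6, CDT1 and MCM3 held no such letters in these windows. The CCAAT box, the letters CCAAT on either strand, was present in 8 of the 11 windows and in 34.6% of all windows. The 6 genes that held it were CDC6, GMNN, MCM3, MCM6, MCM7 and MCM10. The letters TTTGAA, a form of the CHR element of G2/M genes, were in 0 of the 11 windows and in 15.2% of all windows. These are matches of letters and no binding was measured.

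The helicase subunits MCM2 to MCM7 form one ring in equal number, and their ratios lay within 0.21 of each other. MCM2 had log2 levels of 7.14 on the vector array and 7.20 on the TWIST-1 array. MCM5 had 7.82 and 7.90, so both were slightly higher with TWIST-1, by 1.04-fold and 1.05-fold. MCM3 had 8.66 and 8.65, a ratio of -0.0054. Together with MCM5, MCM2 forms the gate through which the ring opens on DNA. MCM4 had 8.08 and 7.95, a ratio of -0.13 and the lowest of the 6 subunits. MCM6 had 8.64 and 8.56 (ratio -0.08), and MCM7 had 8.03 and 7.95 (ratio -0.08). MCM4, MCM6 and MCM7 form the stable core of the helicase. As deposited all of them were lower on the TWIST-1 array, MCM4 by 8.8%, MCM6 by 5.1% and MCM7 by 5.2%. Their ratios shrank to -0.09, -0.02 and -0.04 after loess, and to -0.08, -0.03 and -0.03 after repeated quantile normalization. The SD of ratios between rows of 1 gene was 0.07. The median of the 6 subunits was -0.04 as deposited, -0.08 with centred ratios and above 0 after loess (0.02) and repeated quantile normalization (0.0084), so the ring as a group had no direction that held across scalings. MCM3 itself turned to 0.05 after loess and 0.04 after repeated quantile normalization. MCM5 minus MCM4, the widest difference within the ring as deposited, was 0.21 as deposited, 0.20 after loess and 0.20 after repeated quantile normalization, and MCM2 minus MCM4 was 0.19, 0.17 and 0.18.

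CDC6 is the ATPase that joins the origin recognition complex and recruits CDT1 with the helicase. Its log2 levels were 5.85 and 5.59, which is 16.5% lower on the TWIST-1 array. Of all genes 651 (2.90%) had a lower ratio, and so had 2.74% of the 4602 genes whose mean level lay within 0.5 of that of CDC6. CDC6 was past 1.2-fold with centred ratios (-0.30), after loess (-0.30) and after repeated quantile normalization (-0.30), with 4.83%, 3.68% and 3.36% of all genes lower by as much in those scalings, and no other licensing gene was lower by that much in any of them. None was higher by that much, where 1.46%, 1.48% and 1.59% of all genes were.

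MCM10, which helps to activate the loaded helicase, had levels of 5.72 and 5.55, 11.3% lower on the TWIST-1 array. Of all genes 1847 (8.22%) had a lower ratio. Its ratio of -0.17 was -0.21 with centred ratios, -0.22 after loess and -0.22 after repeated quantile normalization. At a threshold of 1.1-fold CDC6 and MCM10 were the 2 licensing genes counted as lower, where 11.8% of all genes were, and none was counted as higher, where 17.1% of all genes were. At 1.5-fold none of the 10 was lower or higher, against 0.0979% and 0.0312% of all genes.

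CDT1, the loading factor that brings the MCM ring to the origin, had levels of 6.73 and 6.80, and its inhibitor GMNN had 5.89 and 5.82. Their ratios were 0.07 and -0.07, so CDT1 was relatively higher than geminin on the TWIST-1 array by 0.14. The difference was 0.18 after loess and 0.19 after repeated quantile normalization. CDT1 and CDC6, partners in loading, lay farthest apart among the pairs compared here, at 0.33 as deposited and 0.37 after loess normalization. No error can be given for any of these differences. The RNA of a mixed culture also cannot show whether a lower level comes from fewer cells in the phase that expresses a gene or from less RNA in each cell.

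**Figure D2:**
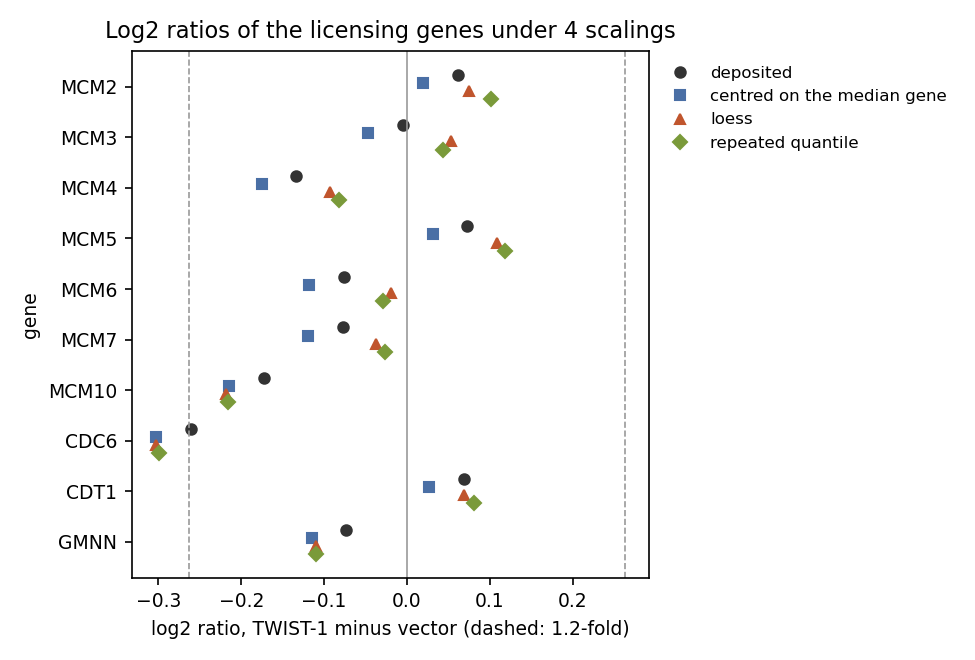
Log2 ratio (TWIST-1 minus vector, x axis) of each licensing gene as deposited and under 3 other scalings, with dashed lines at 1.2-fold. CDC6 lies just inside the lower line as deposited and beyond it in the other scalings (-0.30), and MCM3 is the only gene with points on both sides of 0.

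Ratios on these arrays varied with the level of a gene, which bears on how the licensing genes compare. Among genes within 0.5 of the level of MCM5 the median ratio was -0.06, and 85.3% of them had a lower ratio than MCM5. For MCM2 and MCM3 that share was 76.4% and 68.9%, for MCM6 47.0%, for MCM7 44.1% and for MCM4 28.5%. Around the levels of CDC6, MCM10 and GMNN the median ratio was 0.06, 0.06 and 0.05, and the shares of genes with a lower ratio were 2.74%, 7.31% and 20.8%. For CDT1 it was 72.4%. Within their own level range, MCM2, MCM3, MCM5 and CDT1 were thus above the middle of the genes and the other 6 below it, and CDC6 alone lay beyond the lowest 5% of its range (-0.21).

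**Figure D3:**
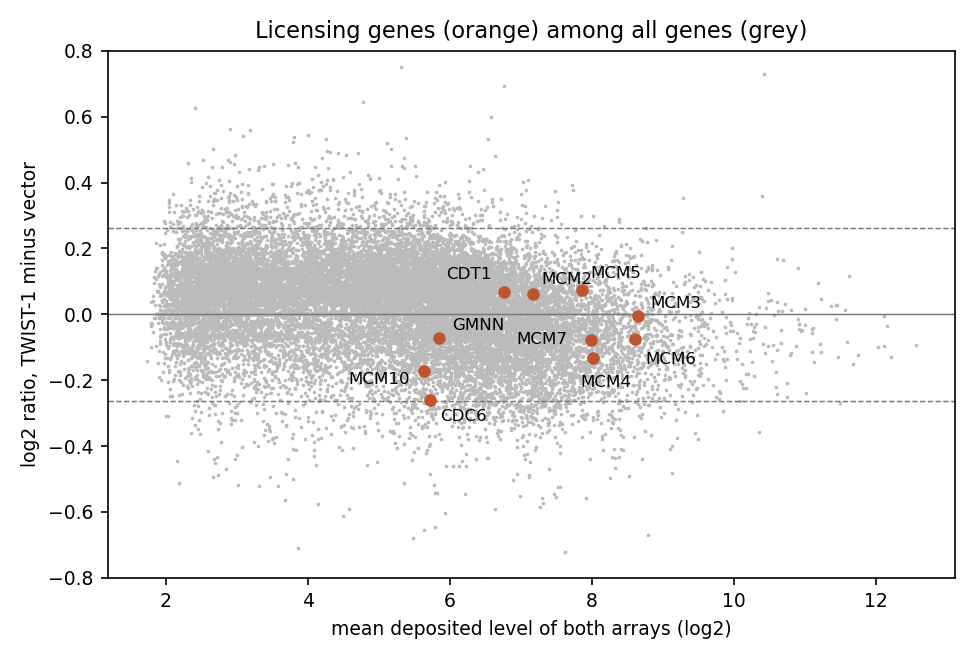
Log2 ratio (TWIST-1 minus vector, y axis) against the mean deposited level (x axis) for 22465 genes (grey) and the 10 licensing genes (orange, named). Dashed lines mark 1.2-fold, and 13 genes lie beyond the plotted limit of 0.8. The licensing genes lie within the grey cloud, with CDC6 near its lower edge.

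RNAs transcribed from within or next to a licensing gene give a further readout of these loci, and they were chosen after their values were seen. The miRNA genes MIR106B, MIR93 and MIR25 lie inside MCM7. Their mature products from RefSeq are shown with the seed, bases 2 to 8, in capitals, because it groups the first pair.
hsa-miR-106b-5p: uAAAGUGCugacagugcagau
hsa-miR-93-5p: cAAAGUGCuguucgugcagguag
hsa-miR-25-3p: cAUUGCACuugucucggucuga
The first pair shares the seed AAAGUGC of the miR-17 family. The row of MIR106B had log2 levels of 4.85 and 4.56, which is 1.22-fold lower on the TWIST-1 array (ratio -0.29). The row of MIR93 had 3.63 and 3.40 (ratio -0.23), and that of MIR25 had 5.81 and 5.77 (ratio -0.04). MIR106B thus passed 1.2-fold, as did 2.85% of all genes, while its host MCM7 had a ratio of -0.08. MIR93 passed it with centred ratios (-0.27), after loess (-0.29) and after repeated quantile normalization (-0.28). In those scalings 4.83%, 3.68% and 3.36% of all genes were lower by as much as 1.2-fold or more. Both MIR106B and MIR93 were dimmer than the median gene level of 5.19. Whether the rows of these miRNA genes, MIR25 among them, read mature miRNA, precursor or unspliced MCM7 RNA cannot be told from the table.

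Among protein-coding neighbours, PRKDC, the gene of the DNA-dependent protein kinase catalytic subunit that lies beside MCM4, had levels of 9.34 and 9.20. Its ratio of -0.14 stood beside -0.13 for MCM4. TPRA1, next to MCM2, had 6.997 and 7.15 (ratio 0.15), and APRT, the adenine salvage enzyme gene next to CDT1, had 7.61 and 7.76 (ratio 0.15). Those 3 neighbours had ratios of the same sign as the licensing gene. The neighbours of MCM7 did not, with COPS6, a COP9 signalosome subunit gene, at 0.12 and AP4M1, an adaptor complex gene, at 0.06.

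The other genes of replication were described from lists by the step they serve. Of 6 measured genes of the origin recognition complex none was past 1.2-fold, all had ratios below 0, and the median was -0.09. ORC6 was the lowest with levels of 6.47 and 6.28 (ratio -0.19), and ORC5 the highest with 6.11 and 6.09 (ratio -0.02). ORC3 was also at -0.03 and lay above 0 after repeated quantile normalization. Of the 4 MCM paralogs and binding proteins none was past 1.2-fold, and the median was -0.12. MCMBP, which binds MCM proteins and helps to remove the ring from chromatin, had 7.65 and 7.49 (ratio -0.16), while MCMDC2 was dim at 2.10 and 2.18 (ratio 0.08).

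Proteolysis restricts licensing outside G1, with CDT1 degraded through CUL4, DDB1 and DTL and through SKP2, and geminin through the anaphase-promoting complex with FZR1. Of 10 such genes none was past 1.2-fold, 7 had ratios below 0, and the median was -0.07. CUL4B was the lowest with 6.77 and 6.53 (ratio -0.24, and -0.28 with centred ratios, past 1.2-fold), and FZR1 the highest with 6.80 and 6.93 (ratio 0.13).

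Origin firing turns the loaded ring into an active helicase with CDC45 and the GINS complex. Of 13 genes none was past 1.2-fold, 9 had ratios below 0, and the median was -0.11. DONSON, which brings GINS to the helicase, was the lowest with 6.57 and 6.33 (ratio -0.24, and -0.28 with centred ratios, past 1.2-fold). CDC45 was the highest with 6.14 and 6.25 (ratio 0.12). Of 29 genes of the replication fork none was past 1.2-fold, 19 had ratios below 0 and 8 above, and the median was -0.05. The clamp loader subunit gene RFC3 was the lowest with 7.03 and 6.79 (ratio -0.24, and -0.28 centred), and the DNA polymerase delta subunit gene POLD2 the highest with 7.81 and 7.98 (ratio 0.17). Of 5 genes of nucleotide supply none was past 1.2-fold and the median was 0, set by TYMS and RRM2, whose deposited values were the same on both arrays. It was 0.04 after loess and 0.05 after repeated quantile normalization, with DCTPP1 the lowest at -0.14 and the thymidine kinase gene TK1 the highest at 0.18.

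Of 21 G1/S regulators 3 (14.3%) were at least 1.2-fold lower, against 2.85% of all genes, and none was higher, against 2.71%, with a median of -0.09. After loess 2 were lower, against 3.68% of all genes, and after repeated quantile normalization 1, against 3.36%. The cyclin E2 gene CCNE2, whose product drives entry into S phase, had levels of 4.29 and 3.88 (ratio -0.41), below the median gene level. The pocket protein genes RBL1 (7.55 and 7.25, ratio -0.29) and RBL2 (7.76 and 7.49, ratio -0.27) were the others, RBL2 short of the threshold after loess (-0.24) and both short of it after repeated quantile normalization (-0.25 and -0.23). The highest of the list was CDK4 at 0.10. The other cyclin E gene, CCNE1, was brighter than CCNE2, with levels of 6.07 and 6.09 (ratio 0.02). The E2F activator genes E2F1 and E2F3 had ratios of -0.09 and -0.15, and E2F2 one of 0.06. Of 11 G2/M genes 3 (27.3%) were lower, against 2.85% of all genes, and none was higher, and the median was -0.14. All 11 G2/M genes and 18 of the 21 G1/S regulators were at or above the median level. Among the 11233 genes at or above it, 475 were at least 1.2-fold lower and 186 higher. Both lists were chosen with earlier results of these data known. KIF11 had levels of 7.18 and 6.85 (ratio -0.33), TOP2A 8.86 and 8.56 (ratio -0.30) and the proliferation marker gene MKI67 8.92 and 8.65 (ratio -0.27), of which only KIF11 was past 1.2-fold after loess (-0.32) and repeated quantile normalization (-0.30), against 3.68% and 3.36% of all genes. The highest was AURKB at 0.06. Among 5 reference genes none was past 1.2-fold, and their ratios ran from -0.19 for B2M to 0.13 for HPRT1, a range that held all licensing genes but CDC6. Whether the licensing genes differ from any of these lists could not be tested with 1 array a group.

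**Figure D4:**
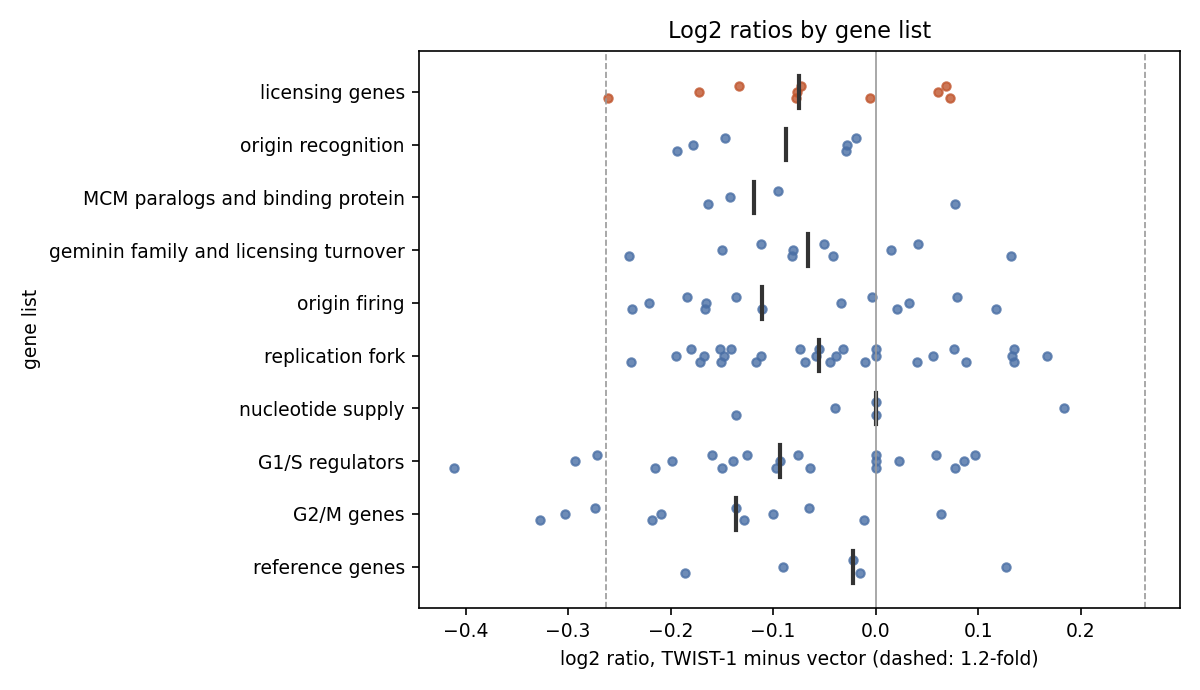
Log2 ratios (TWIST-1 minus vector, x axis) of the measured genes of each list, 1 point a gene spread vertically for view, with the median of each list as a black bar and dashed lines at 1.2-fold. The medians run from -0.14 for the G2/M genes to 0 for nucleotide supply (2 of whose 5 genes had the same value on both arrays), with the licensing genes (orange) at -0.07, and points past the lower dashed line appear among the G1/S and G2/M genes.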

How the data were processed

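RNA of U937 cells with empty vector or TWIST-1 was hybridised to 1 array each. The values deposited by the authors are log2 levels of transcript clusters, quantile-normalized according to the paper's methods. Affymetrix Expression Console is named in the submitters' processing notes. How probes were summarised, the background correction and the build are not given in the sources used. Values were used as deposited. Of 25324 annotated rows, 23781 carry 1 gene symbol and 1543 several, and only the former were named. For 21497 rows the gene identifier was found in RefSeq, and the symbol was taken from there whether or not it differed. The brightest row represented a gene, and 479 genes had more than 1 row, with an SD of log2 ratios between rows of 0.07. With 1 array a group no test was made, and genes were counted at the 1.2-fold threshold of the study's methods. Precision is limited by the number of arrays.

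The members and lists were chosen with earlier results of these data known. The text names all 10 licensing genes, TWIST1, every list gene past 1.2-fold and the highest and lowest of each list of replication and the cell cycle. The other genes named (markers, ORC3, CCNE1, E2F1 to E2F3 and neighbours) were chosen after their values were seen. RRM1, PRIM2, LRWD1, MCIDAS and CD33 had no row with their symbol alone and were not analysed here, and some items are not reported. Alternatives were centred ratios, loess and repeated quantile normalization (limma 3.58.1 in R 4.3.3), the mean of a gene's rows, a restriction to genes at the median level or above, an offset of 16 on the linear scale and thresholds of 1.1-fold and 1.5-fold. Other steps used Python 3.11.15, numpy 2.4.6 and pandas 2.3.3. The procedure was tested on simulated data.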

Additional observations from a re-analysis of the deposited data

How the results depend on the processing

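The number of licensing genes at least 1.2-fold lower, 0 as deposited, was 1 (CDC6) with centred ratios, 1 after loess, 1 after repeated quantile normalization and 2 at 1.1-fold. It was 0 with the offset and at 1.5-fold, and the number higher was 0 in each alternative run. The lowest ratio, that of CDC6, ran from -0.30 (loess and centred) to -0.20 (offset), and the median of the 10 genes from -0.12 (centred) to -0.03 (loess and repeated quantile normalization). Among single licensing genes, MCM3 changed sign, after loess and after repeated quantile normalization. The mean of a gene's rows and the restriction by level could not change a value of these genes, which have 1 row each and lie above the median level. Over all genes, the 641 lower became 2650 at 1.1-fold, 22 at 1.5-fold, 275 with the offset and 1084 with centred ratios. The 609 higher became 329 centred, 333 after loess, 358 after repeated quantile normalization, 186 when dimmer genes than the median were left out, 83 with the offset, 3833 at 1.1-fold and 7 at 1.5-fold. Other thresholds and the smaller set of genes explain their own counts. Centring took the same 0.04 from every ratio, and the offset drew every ratio towards 0, so those counts follow by arithmetic. For loess and repeated quantile normalization the cause was not tested. No paired analysis was possible because each group has 1 array.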

Other observations

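Of the 22465 genes, 1177 (5.24%) had the same deposited value on both arrays to the last digit. None of the 10 licensing genes did, but 2 of the 5 genes of nucleotide supply did, the thymidylate synthase gene TYMS at 8.74 and the ribonucleotide reductase gene RRM2 at 8.14. So did POLA2 (6.43) and RPA3 (4.03) of the replication fork, and CCND2 (7.40), CDKN1A (6.02) and E2F7 (3.29) of the G1/S regulators. A ratio of exactly 0 for these genes is a property of the deposited values, and what produced it was not tested.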
